A study of Homo sapiens with 6 samples.

Results

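Aminoacyl-tRNA synthetases are the enzymes that attach each amino acid to its transfer RNA. Human cells use separate sets for the cytosol and for mitochondria, and both sets are encoded in the nucleus. The genes described here are 33 listed synthetase genes, taken by symbol from a list drawn up with earlier results of these data known, out of the 18417 genes measured. They comprise 19 cytosolic genes and 14 mitochondrial genes, whose names end in 2, and all 33 were found on the arrays. They were measured in MDA-MB-231, an established cell line from a triple negative breast tumor. There were 3 samples treated with 500 nM EC-70124, a multi-kinase inhibitor of the indolocarbazole type, during 24 h, and 3 control samples of the same line without the drug. The methods call the samples independent, and each was hybridized to 1 Affymetrix Human Gene ST array. Whether control cells received the solvent of the drug is not given in the sources used here.

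In the cytosol most synthetases charge tRNA for 1 amino acid, and several of them sit together with the scaffold proteins AIMP1, AIMP2 and EEF1E1 in a multisynthetase complex. The mitochondrial enzymes charge the tRNAs with which the few proteins of the mitochondrial genome are made. When tRNAs are uncharged the kinase GCN2 (gene EIF2AK4) phosphorylates eIF2alpha, and the translation of the transcription factor ATF4 then rises. ATF4 is known to drive genes of amino acid supply and several cytosolic synthetase genes through C/EBP-ATF response elements, also called amino acid response elements. In human cells GARS1 and KARS1 encode both a cytosolic and a mitochondrial enzyme, and EPRS1 carries both the glutamate and the proline activity.

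The values are linear intensities, 1 per probe set, which the authors normalized in dChip. Column medians were 451 to 460.1 in the EC-70124 arrays and 437 to 444 in the control arrays. Pearson's r of the log2 values across probe sets was 0.990 to 0.993 within the groups and 0.979 to 0.984 across them. Fold changes are differences of mean log2 intensity, EC-70124 minus control, and a gene was called when the adjusted p from limma over all genes was under 0.05. By this rule 19.7% of all genes rose and 14.8% fell. Rises thus made up 57.2% of all calls, and 46.9% after quantile normalization of the same arrays. Of the genes known to be active in this line, VIM, CD44 and EGFR had intensities of at least 5282 in all 6 arrays, with CD44 and EGFR down-regulated (log2 fold changes -0.29 and -0.39), and SNAI2 had 1664 to 3671 and was up-regulated (0.78). Of the genes known to be low or lacking in it, ESR1, PGR and CDH1 lay between 149 and 233, with a small rise of CDH1 (0.19, limma adjusted p = 0.049). EPCAM lay between 352 and 437, and GATA3 between 507 and 745 with a log2 fold change of 0.46 (limma adjusted p = 0.000446). The part of these shifts in the results was not tested. The leukocyte gene PTPRC lay between 78.6 and 105, and CD3E, also of leukocytes, between 166 and 227. The endothelial genes PECAM1 and CDH5 lay between 185 and 232 and between 277 and 328. The table holds no measure of background, so that these low values could not be separated from it. Fewer cells with a transcript and less of it per cell cannot be told apart in such samples.

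Cytosolic synthetase genes were mostly up-regulated by EC-70124. Of the 19 genes, 12 rose, 1 fell and 6 did not pass the test, against the 19.7% of all genes that rose and the 14.8% that fell. Their median log2 fold change was 0.31, and that of all genes was -0.0045. Of the 14 mitochondrial genes, 5 rose, 3 fell and 6 did not pass, with a median log2 fold change of 0.03. Both sets together thus held 21 called genes of 33, against 34.5% of all genes called in either direction. At least 1.5-fold rises were reached by 5 cytosolic genes and 0 mitochondrial genes, against 6.43% of all genes. The 33 genes were mostly bright, with a median percentile of 88.4 among all genes by mean intensity. The mitochondrial genes were dimmer as a set. Mean control intensities ran from 510.4 to 3905 in mitochondrial genes and from 1852 to 8419 in cytosolic genes. The part of this difference in the fold changes of the 2 sets was not tested. Without the 30% dimmest genes, 26.7% of the remaining genes rose and 21.0% fell. Under that setting 12 cytosolic genes rose and 1 fell, and 6 mitochondrial genes rose and 3 fell. As the mean over the genes of a compartment, relative to the control mean, the cytosolic set stood at 0.35, 0.34 and 0.41 on the log2 scale in EC-70124 replicates 1, 2 and 3, and between -0.03 and 0.02 in the control arrays. The mitochondrial set stood between 0.01 and 0.04 in the EC-70124 arrays and between -0.02 and 0.04 in the control arrays, so that the groups overlapped. These means describe listed genes and were not tested.

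**Figure D1:**
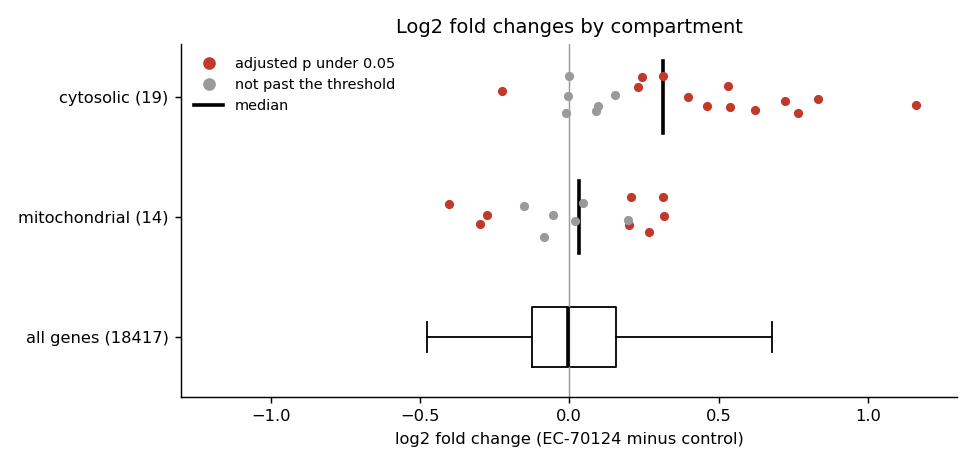
Log2 fold change (EC-70124 minus control, x axis) of each cytosolic and mitochondrial synthetase gene, red for genes called by limma (adjusted p under 0.05) and gray for the others, with the set's median as a black bar. The box below gives the quartiles of all 18417 genes with whiskers at percentiles 5 and 95, and the cytosolic median lies at 0.31 while the mitochondrial median, at 0.03, lies near that of all genes.

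CARS1, which charges tRNA with cysteine, had the largest rise. Its intensity was 4267, 4199 and 3955 in the EC-70124 samples, against 1828, 1985 and 1744 in the control samples. Each treated sample had more than any control sample, and the log2 fold change was 1.16 (SE 0.07, limma adjusted p = 1.28e-05). YARS1, the tyrosine enzyme, had 7131, 6816 and 6471 in EC-70124 samples and 3789, 3980.4 and 3685 in control samples, a log2 fold change of 0.83. TARS1, the threonine enzyme, had 6669, 6527 and 6793 in EC-70124 samples and 3877, 3868 and 3999.8 in control samples, a log2 fold change of 0.77. Neither gene overlapped between the groups, and within each group the highest and lowest array of TARS1 lay close together. All treated arrays lay above all control arrays in 25.6% of all genes. AARS1, which charges tRNA with alanine, had 9275, 9287 and 9460.1 in EC-70124 samples and 5548, 5865 and 5592 in control samples, a log2 fold change of 0.72. The adjusted p values from limma were 3.57e-05 for YARS1, 2.37e-05 for TARS1 and 3.44e-05 for AARS1.

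WARS1, the tryptophan enzyme, had the widest spread among treated samples of the 7 genes with a log2 fold change above 0.5. Its intensity was 3512, 3576 and 4395 in EC-70124 samples and 2410.4, 2580.1 and 2431 in control samples, a log2 fold change of 0.62 (SE 0.09, limma adjusted p = 0.00105). EC-70124 replicate 3 stood 0.31 above the mean of the other treated arrays on the log2 scale, and without it the log2 fold change was 0.52. GARS1, the glycine enzyme of both compartments, had 10086, 9883 and 9355 in EC-70124 samples and 6573, 6769.8 and 6857 in control samples, a log2 fold change of 0.54. MARS1, the methionine enzyme, had 7584, 7654 and 7409.6 in EC-70124 samples and 5207, 5369 and 5109 in control samples, a log2 fold change of 0.53. The treated arrays of WARS1, GARS1 and MARS1 all lay above their control arrays, as did those of 25.6% of all genes.

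Smaller rises were measured for 5 further cytosolic genes. These were SARS1 for serine (log2 fold change 0.46), FARSA (0.40), NARS1 for asparagine (0.31), IARS1 for isoleucine (0.24) and LARS1 for leucine (0.23). LARS1 was the weakest of these calls, with an adjusted p of 0.0217 from limma and a range over the alternatives of 0.00543 to 0.102. Its call was lost without EC-70124 replicate 1 (adjusted p = 0.0748), EC-70124 replicate 2 (0.0761), control replicate 1 (0.0631) or control replicate 2 (0.0789). FARSA and FARSB encode the catalytic alpha and the beta subunit of the same phenylalanine enzyme, and their values moved in opposite directions. FARSA had 5895, 5927 and 6557 in EC-70124 samples and 4508, 4651 and 4776 in control samples. FARSB had 4179, 4268 and 4775 in EC-70124 samples and 4979, 5161 and 5289 in control samples, a log2 fold change of -0.22 (SE 0.07, limma adjusted p = 0.0326). The groups did not overlap for either subunit, against 25.6% of all genes with all treated arrays above and 22.0% with all below. The call of FARSB was lost without EC-70124 replicate 1 (adjusted p = 0.105), EC-70124 replicate 2 (0.105), control replicate 1 (0.0615), control replicate 2 (0.0889) or control replicate 3 (0.0989). Its range over the alternatives was 0.00563 to 0.139.

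The 6 cytosolic genes that did not pass were HARS1 (log2 fold change 0.15) for histidine, RARS1 (0.10) for arginine, EPRS1 (0.09), QARS1 (-0.0021) for glutamine, KARS1 (-0.0041) for lysine and VARS1 (-0.01) for valine. KARS1 had 6276, 6149 and 6858 in EC-70124 samples and 6361, 6536 and 6421 in control samples, so that the control values lay inside the treated range. For HARS1, RARS1 and VARS1 the EC-70124 replicate 3 value was higher than the other treated arrays by 0.25, 0.22 and 0.22 on the log2 scale. Such a gap of over 0.15 in either direction was found in 6 of 19 cytosolic genes, 1 of 14 mitochondrial genes and 35.0% of all genes. VARS1 is represented by 2 probe sets with the same values in all 6 arrays, which adds no second measurement. The 7 listed enzymes of the multisynthetase complex held 3 of the up-regulated genes (MARS1, IARS1 and LARS1) and had a median log2 fold change of 0.10, against 19.7% of all genes up-regulated. The other 12 cytosolic genes held 9 and had a median of 0.50. By catalytic class over both compartments, 10 of 17 class I genes rose and 1 fell, and 7 of 15 class II genes rose and 3 fell, against 19.7% and 14.8% of all genes, EPRS1 with both kinds of activity being left out.

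**Figure D2:**
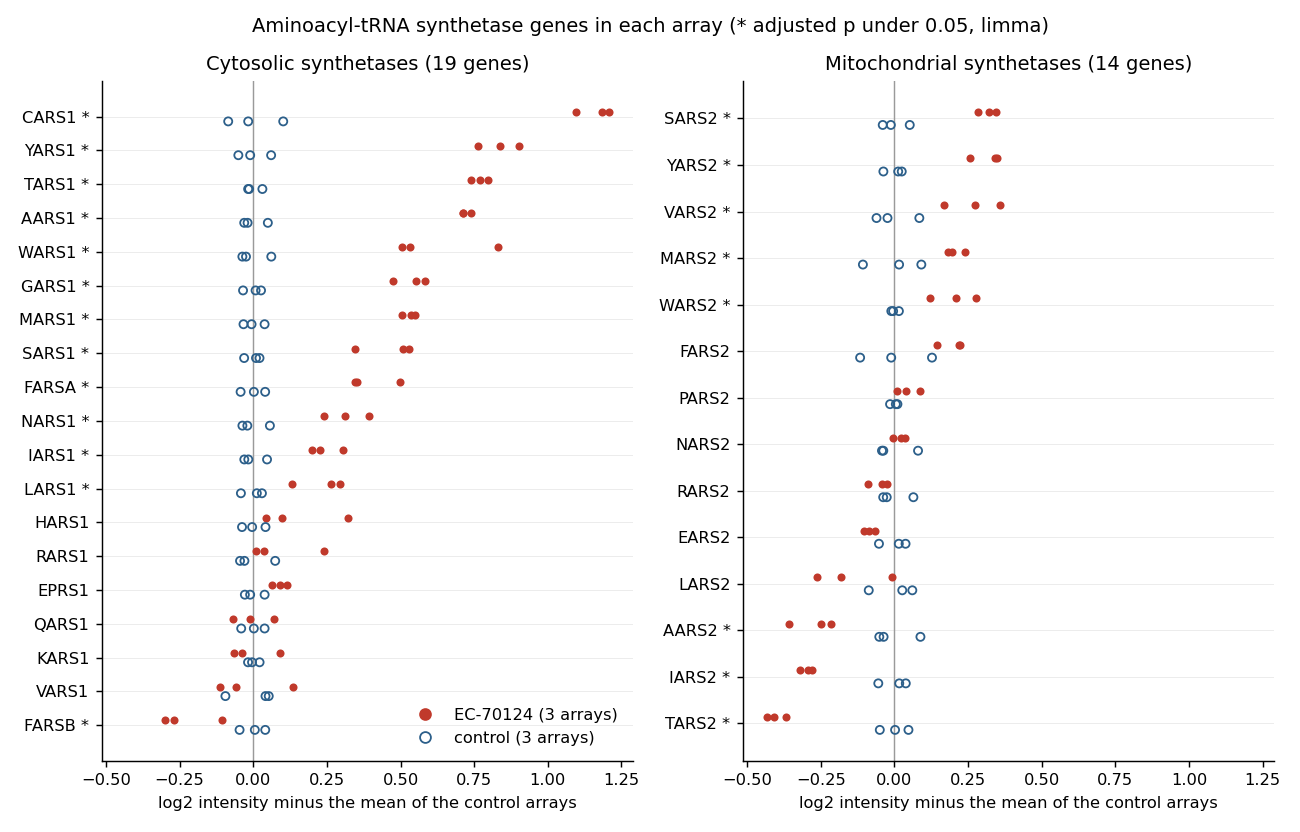
Log2 intensity of each synthetase gene in each array, minus the mean of the 3 control arrays of that gene (x axis), for cytosolic genes on the left and mitochondrial genes on the right, ordered by log2 fold change. Filled red points are EC-70124 arrays and open blue circles are control arrays. An asterisk marks an adjusted p under 0.05 from limma, reached by 13 cytosolic and 8 mitochondrial genes and by 34.5% of all genes.

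The promoters of the rising cytosolic genes were read for the core of the C/EBP-ATF response element. RefSeq promoter windows (GRCh38.p14, 250 bases before to 50 after each annotated start site, 300 bases in all) were matched to 28 of the 33 genes. YARS1, LARS1, VARS1, VARS2 and AARS2 were not matched, and 8 genes have 2 windows each. TGATGNAA was searched on both strands and found in 7 of 16 cytosolic genes, against 3.59% of the 14239 measured genes with a window and 3.62% of all 35116 windows. The stricter TGATGCAA, every match of which is also a match of the first, was found in 6 of 16, against 0.969% of genes and 0.866% of windows. The 7 genes were CARS1, TARS1, AARS1, GARS1, MARS1, NARS1 and IARS1, which are 7 of the 10 matched cytosolic genes that rose, and none of the 6 matched cytosolic genes that did not rise held it. Among the 12 matched mitochondrial genes, YARS2 held TGATGNAA and none held TGATGCAA. Over all measured genes with a window the shares of rises were lower than among the synthetases. Of the 138 genes with TGATGCAA, 40 were up-regulated (29.0%), and of the 511 with TGATGNAA 99 were (19.4%). Of all 18417 genes, which include those without a window, 19.7% were up-regulated. For the other motifs searched, described below, the shares were 37.6% with the ETS motif, 33.6% with the NRF1 motif and 25.9% with the E-box. A match describes letters in a window and does not show that a factor binds there.

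The matched bases are shown to let the flanks be compared, 28 bases each, 5′ to 3′ on the strand on which the core reads TGATGNAA, with the core in capitals.
CARS1: tcctagaatcTGATGCAAccgccgcccc
TARS1: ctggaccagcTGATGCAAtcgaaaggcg
AARS1: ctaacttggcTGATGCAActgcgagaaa
GARS1: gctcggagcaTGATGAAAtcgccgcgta
MARS1: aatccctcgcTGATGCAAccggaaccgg
NARS1: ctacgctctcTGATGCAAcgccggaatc
IARS1: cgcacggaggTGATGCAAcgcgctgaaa
YARS2: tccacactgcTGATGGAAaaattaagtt

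In GRCh38.p14 these windows lie at chr11:3057408-3057435 on the plus strand for CARS1, chr5:33440957-33440984 on the minus strand for TARS1, chr16:70289676-70289703 on the plus strand for AARS1 and chr7:30594835-30594862 on the minus strand for GARS1. Those of MARS1, NARS1 and IARS1 lie at chr12:57488054-57488081 on the minus strand, chr18:57621805-57621832 on the minus strand and chr9:92293693-92293720 on the plus strand. That of YARS2 lies at chr12:32756077-32756104 on the minus strand. In 5 of the 7 cytosolic genes the core fell within 22 bases of an annotated start site, which is counted as position 1 with no position 0. It spanned positions -2 to 6 in CARS1, 3 to 10 in TARS1, -4 to 4 in MARS1, 15 to 22 in NARS1 and -13 to -6 in IARS1. In GARS1 it spanned -33 to -26 of a second annotated start, in AARS1 -187 to -180 and in YARS2 -197 to -190. NARS1 and YARS2 carried it on the transcribed gene's own strand, and the other 6 on the opposite strand.

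Printed next are the promoter of CARS1, the gene with the largest rise, and those of the threonine genes TARS1 and TARS2. The values of these cytosolic and mitochondrial genes moved furthest apart among the 15 listed pairs. Each promoter is given for 250 bases before and 30 after the start site, 5′ to 3′ on the gene's strand. Capitals mark the core, which on this strand reads as its reverse complement, and TARS2 has none. They lie at chr11:3057394-3057673 (minus strand), chr5:33440715-33440994 (plus strand) and chr1:150487169-150487448 (plus strand).
CARS1: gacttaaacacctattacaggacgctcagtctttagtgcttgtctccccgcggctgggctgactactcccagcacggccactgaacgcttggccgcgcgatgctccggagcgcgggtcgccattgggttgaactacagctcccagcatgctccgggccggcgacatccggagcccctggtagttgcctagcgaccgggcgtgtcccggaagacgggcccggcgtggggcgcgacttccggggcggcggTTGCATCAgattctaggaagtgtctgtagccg
TARS1: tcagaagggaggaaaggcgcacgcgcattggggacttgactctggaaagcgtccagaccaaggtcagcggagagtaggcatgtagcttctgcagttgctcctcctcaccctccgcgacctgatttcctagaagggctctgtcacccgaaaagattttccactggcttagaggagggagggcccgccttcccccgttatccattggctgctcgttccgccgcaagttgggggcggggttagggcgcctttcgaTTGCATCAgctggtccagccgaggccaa
TARS2: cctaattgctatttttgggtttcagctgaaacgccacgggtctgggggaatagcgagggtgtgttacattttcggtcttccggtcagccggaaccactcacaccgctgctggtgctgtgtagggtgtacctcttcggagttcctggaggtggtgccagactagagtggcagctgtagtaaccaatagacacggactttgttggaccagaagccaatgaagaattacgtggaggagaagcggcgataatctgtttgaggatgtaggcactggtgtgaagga

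The ETS motif CCGGAAGT was found in 5 of 16 cytosolic genes (CARS1, TARS1, WARS1, NARS1 and HARS1) and 2 of 12 mitochondrial genes (PARS2 and EARS2), against 7.15% of genes. The E-box CACGTG was found in IARS1, MARS2 and EARS2, against 10.9% of genes, and the 10-base motif of nuclear respiratory factor NRF1 in MARS2 alone, against 2.05% of genes. All were searched on both strands as literal letters.

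**Figure D3:**
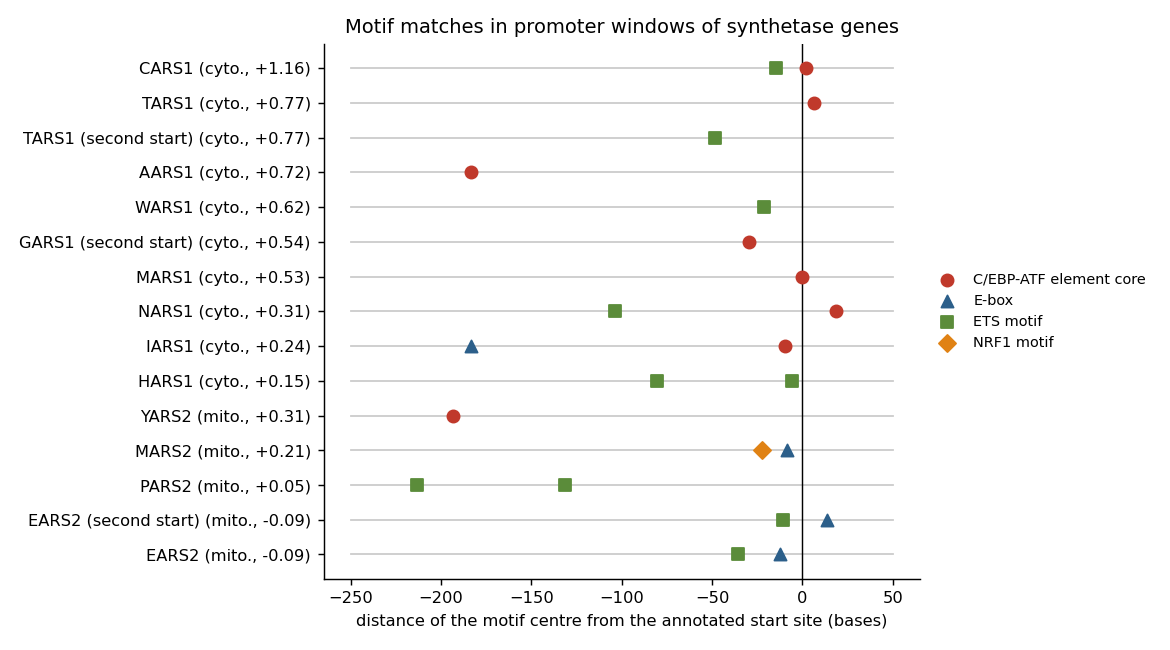
Position of each motif match (centre, in bases from the annotated start site, x axis) in the promoter windows of synthetase genes that hold one (y axis, with compartment and log2 fold change). Red circles mark the C/EBP-ATF core, found in 7 cytosolic genes and in YARS2, and in CARS1, TARS1, MARS1, NARS1 and IARS1 they lie next to the start site at the vertical line.

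Mitochondrial synthetase genes changed in both directions, and no change reached 1.5-fold. TARS2, the mitochondrial threonine enzyme, had the largest fall. Its intensity was 1655, 1585 and 1609.9 in EC-70124 samples and 2065, 2209 and 2140.5 in control samples, a log2 fold change of -0.40 (SE 0.05, limma adjusted p = 0.000701). IARS2, for isoleucine, had 3126, 3182 and 3217 in EC-70124 samples and 4009, 3758 and 3948 in control samples, a log2 fold change of -0.30. AARS2, for alanine, had 398, 439 and 429 in EC-70124 samples and 492, 542 and 497 in control samples, a log2 fold change of -0.27. All treated arrays of these 3 genes lay below all control arrays, as did those of 22.0% of all genes, and AARS2 was the dimmest of the 33 genes (percentile 38.4 of all genes by mean intensity). The adjusted p values from limma were 0.0031 for IARS2 and 0.0123 for AARS2.

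The 5 mitochondrial genes that rose were SARS2, YARS2, VARS2, MARS2 and WARS2. SARS2, for serine, had 1431, 1492 and 1467 in EC-70124 samples and 1165, 1218 and 1143 in control samples, a log2 fold change of 0.32 (limma adjusted p = 0.00239). YARS2, for tyrosine, had 3849, 3827 and 3612 in EC-70124 samples and 3076, 3050.5 and 2946 in control samples, a log2 fold change of 0.31 (limma adjusted p = 0.00265). In both genes every treated array was above every control array. VARS2, for valine, had 895, 964 and 1022 in EC-70124 samples and 784, 845 and 764 in control samples, a log2 fold change of 0.27. MARS2, for methionine, had 1174, 1137 and 1128 in EC-70124 samples and 1005, 1059 and 923 in control samples, a log2 fold change of 0.21. WARS2, for tryptophan, had 1779, 1675 and 1866 in EC-70124 samples and 1536, 1557 and 1529.5 in control samples, a log2 fold change of 0.20. The groups did not overlap in these 3 genes either, against 25.6% of all genes with all treated arrays above all control arrays.

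The calls of VARS2, MARS2 and WARS2 were near the threshold, with adjusted p values of 0.0181, 0.0411 and 0.0297 from limma. Over the alternatives the adjusted p was 0.0108 to 0.0821 for VARS2, 0.0254 to 0.171 for MARS2 and 0.0171 to 0.164 for WARS2. The call of VARS2 was lost without EC-70124 replicate 2 (0.0557), control replicate 1 (0.067) or control replicate 3 (0.0645). That of MARS2 was lost without EC-70124 replicate 1 (0.114), 2 (0.092) or 3 (0.0502) and without control replicate 1 (0.0974) or 3 (0.123). That of WARS2 was lost without EC-70124 replicate 1 (0.0763) and without control replicate 1 (0.0911), 2 (0.071) or 3 (0.0793). All 3 calls were also lost after quantile normalization, which left SARS2 and YARS2 as the up-regulated mitochondrial genes. The 6 genes that did not pass were FARS2 (log2 fold change 0.20, adjusted p = 0.0724 from limma), PARS2 (0.05), NARS2 (0.02), RARS2 (-0.05), EARS2 (-0.09) and LARS2 (-0.15). FARS2 passed without control replicate 2 (adjusted p = 0.0305) or without the 30% dimmest genes (0.0486), and LARS2 without EC-70124 replicate 3 (0.0352), in ranges over the alternatives of 0.0305 to 0.222 and 0.0352 to 0.463.

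Each of the 14 mitochondrial genes has a listed cytosolic counterpart for the same amino acid, which gives 15 pairs since FARSA and FARSB both pair with FARS2. EPRS1 stands in the pairs with EARS2 and PARS2. The mitochondrial genes CARS2 and HARS2 are not among the 14, so that CARS1 and HARS1 have no pair here. Log2 fold changes were 1.16 for CARS1 and -0.07 for CARS2, and 0.15 for HARS1 and 0.27 for HARS2. For each pair the log2 ratio of the cytosolic to the mitochondrial gene was taken within each array and compared between treated and control arrays, which equals the difference of the log2 fold changes. An exact permutation test of 3 against 3 arrays cannot give a p below 0.1. The 95% intervals given here assume normal errors, on 4 residual degrees of freedom, and are not adjusted over the 15 pairs. Pairs that share FARS2 or EPRS1 are also not independent. The cytosolic gene had the higher log2 fold change in 13 of 15 pairs, with a median difference of 0.30. The interval lay above 0 in 9 pairs, below 0 in 2 and included 0 in 4. In the same 9 and 2 pairs the treated arrays did not overlap with the control arrays. Of all single genes, 25.6% had all treated arrays above and 22.0% all below the control arrays. The share over pairs of other genes was not computed.

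Among the 15 pairs the threonine pair differed most, with TARS1 at 0.77 and TARS2 at -0.40, a difference of 1.17 (95% interval 1.07 to 1.27). The alanine pair followed with a difference of 0.996 (0.87 to 1.12) and the isoleucine pair with 0.54 (0.42 to 0.66). In these 3 pairs the cytosolic gene was up-regulated and the mitochondrial gene was down-regulated. For tyrosine the difference was 0.52 (0.43 to 0.60), for tryptophan 0.42 (0.21 to 0.64), for methionine 0.33 (0.21 to 0.44) and for serine 0.15 (-0.04 to 0.33), and both genes of each of these 4 pairs were up-regulated. The serine pair is thus one in which a difference was not resolved. For leucine the difference was 0.38 (0.01 to 0.75), for asparagine 0.30 (0.08 to 0.51) and for glutamate 0.18 (0.10 to 0.25). The arginine pair (0.15, from -0.09 to 0.38), the proline pair (0.04, from -0.05 to 0.14) and the pair of FARSA with FARS2 (0.20, from -0.11 to 0.51) included 0. The remaining pairs ran the other way. In the valine pair VARS2 had the higher fold change, with a difference of -0.28 (-0.50 to -0.06), and FARSB against FARS2 had a difference of -0.42 (-0.75 to -0.09).

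**Figure D4:**
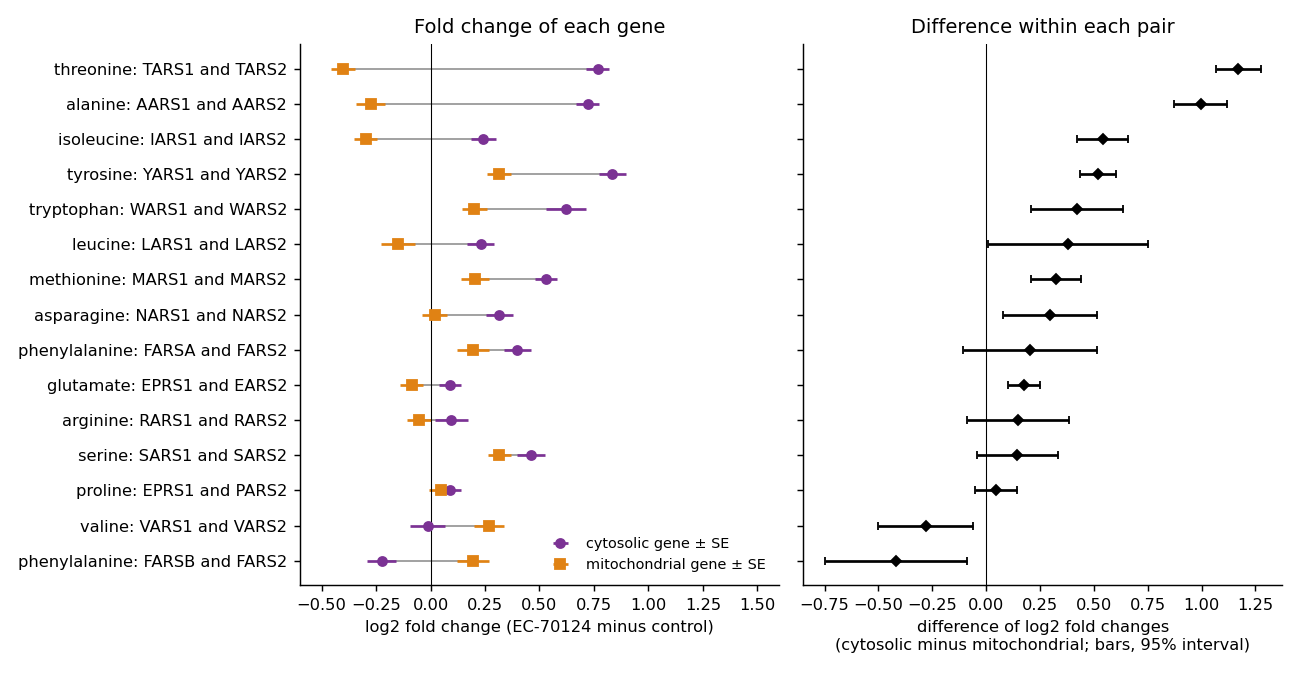
Left, log2 fold change (EC-70124 minus control) with its standard error for the cytosolic gene (purple circle) and the mitochondrial gene (orange square) of each amino acid. Right, the difference of the log2 fold changes with its 95% interval, which runs from 1.17 for threonine to -0.42 for FARSB with FARS2 and lies above 0 in 9 of 15 pairs.

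Genes that work beside the synthetases were read from lists of partners, and are described by their counts. Of 6 measured partners of cytosolic and general tRNA charging, 4 rose and 0 fell, against 19.7% and 14.8% of all genes. TRNT1, which adds the CCA end to which amino acids are joined, had an intensity of 1666 ± 37.1 in EC-70124 samples and 811 ± 36.1 in control samples (SD, n = 3 each), a log2 fold change of 1.04. SEPSECS and PSTK, which make selenocysteine on its tRNA, had log2 fold changes of 0.83 and 0.35, and DTD2, which removes wrongly joined amino acids, of 0.39. AIMP1, a scaffold of the multisynthetase complex, did not pass, at a log2 fold change of 0.13 (limma adjusted p = 0.2). AIMP2 and EEF1E1 were not analysed here. Of 4 partners of mitochondrial charging, 3 rose, against the same 19.7%, namely QRSL1 (0.93) and GATC (0.35), subunits of the complex that makes glutaminyl-tRNA in mitochondria, and MTFMT (0.30), which formylates the initiator methionyl-tRNA. GATB, the remaining subunit, had 0.15. Of 9 measured mitochondrial translation factors, 5 rose and 1 fell, against 19.7% and 14.8% of all genes, with log2 fold changes of 0.87 for MRRF, the ribosome recycling factor, 0.52 for the release factor MTRF1, 0.41 for MTRF1L, 0.33 for the initiation factor MTIF2 and -0.26 for MTRFR. Among 3 other measured synthetase genes, HARS2 was up-regulated (0.27), and TARS3 (0.19) and CARS2 (-0.07) did not pass. HARS2 and CARS2 are the mitochondrial genes for histidine and cysteine, and the counts and pairs of listed mitochondrial genes leave them out.

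A list of 9 genes of uncharged tRNA sensing and the eIF2alpha arm includes ATF4 and EIF2S1, the gene of eIF2alpha. Of these genes 3 rose and 3 fell, against 34.5% of all genes called in either direction. ATF4 itself had 6783 ± 270.2 in EC-70124 samples and 4948 ± 92.4 in control samples (SD, n = 3 each), a log2 fold change of 0.45 (limma adjusted p = 0.000411). PPP1R15A, the stress-induced subunit of the eIF2alpha phosphatase, had a log2 fold change of 1.63 and its constitutive relative PPP1R15B of 0.36. The kinases EIF2AK3, EIF2AK4 and EIF2AK1, known as PERK, GCN2 and HRI, fell by 0.53, 0.29 and 0.25 on the log2 scale. EIF2AK2, the kinase known as PKR, did not pass, at a log2 fold change of 0.01 (limma adjusted p = 0.871). Of 18 ATF4 target genes, 15 rose and 2 fell, against 19.7% and 14.8% of all genes, with a median log2 fold change of 0.88. They include CHAC1 (2.95), DDIT3 (2.24), ATF3 (2.12) and SESN2 (1.92), and the asparagine synthetase gene ASNS stood at 1.74. None of the 7 synthetase genes with the C/EBP-ATF core is in that list. VLDLR (-0.90) and ALDH18A1 (-0.53), an enzyme of proline synthesis, were the ATF4 targets that fell.

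**Figure D5:**
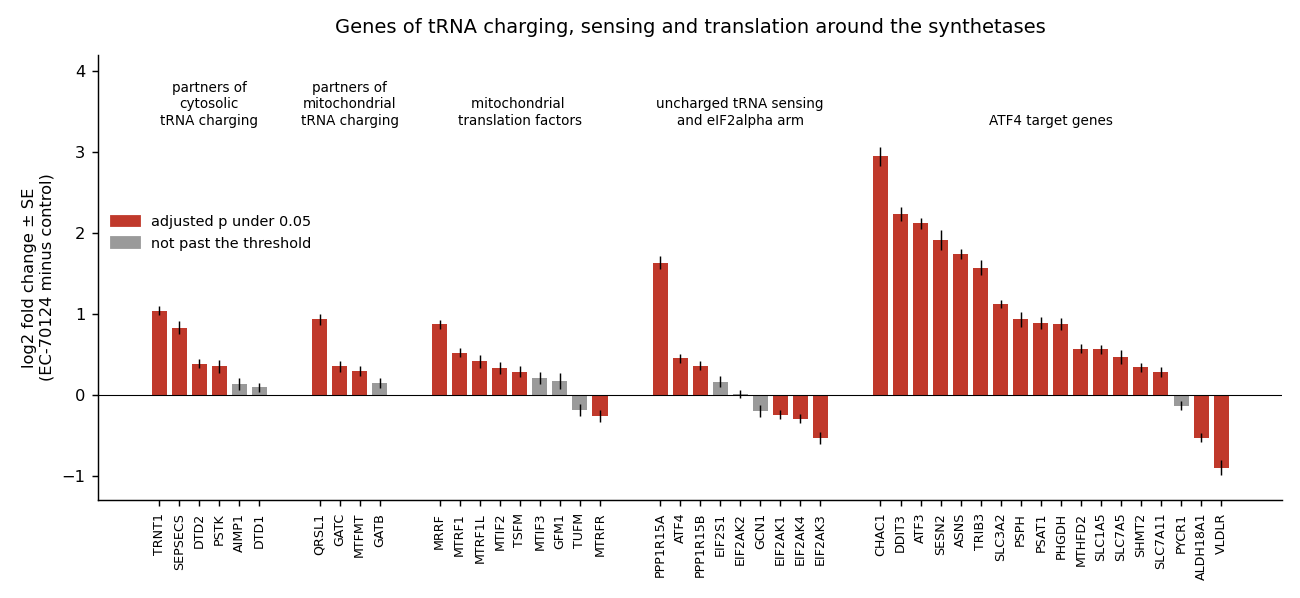
Log2 fold change (EC-70124 minus control) with its standard error for the measured genes of 5 lists around the synthetases, red for genes called by limma (adjusted p under 0.05) and gray for the others. The bars run from 2.95 for CHAC1 to -0.90 for VLDLR, and at the right of the fourth list EIF2AK1, EIF2AK4 and EIF2AK3 lie below 0 while EIF2AK2 lies near 0.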

How the data were processed

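Total RNA of 6 samples was hybridized to Affymetrix arrays. The deposited values are linear intensities, which the authors computed in dChip (version not given in the sources used here) by fitting a probe model to each probe set after scaling arrays to each other on probes of stable rank. No batch, scan date or background measure was given in the sources used here. Of 33252 probe sets, 19460 have 1 symbol in GEO's platform annotation. After a floor of 1, log2 was taken, and each of 18417 genes was represented by its probe set with the highest mean. EC-70124 and control samples were compared with limma 3.58.1 in R 4.3.3, with Benjamini-Hochberg adjustment over all genes, 2-sided, at 0.05. Motif searches used Python 3.11.15 on RefSeq promoter windows.

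The members and the gene lists were chosen with earlier results of these data known. Named genes follow a rule: members that were called with an absolute log2 fold change of at least 0.5, that fell or are mitochondrial, with GARS1 and KARS1, have values per array, and lists name up to 4 called members. The FARSA values, and HARS2, TARS3, CARS2, MTRFR, GATB, AIMP1, ASNS, ALDH18A1, VLDLR and the eIF2alpha kinases, were named after their values were seen. The test was run before use on simulated data with independent noise and far fewer changed genes than were called here. That simulation cannot show how the test performs on data like these. Log2 fold changes had a median standard error of 0.070, and 3 arrays per group limit the precision. Deviations from the group means correlated at r of -0.023 to 0.136 between same-numbered arrays and at -0.218 to 0.149 between differently numbered ones. No label says that the numbers mark a shared batch, so that they were not taken as pairs.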

Additional observations from a re-analysis of the deposited data

How the results depend on the processing

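Under 15 alternatives, none of the 21 called members changed sign, and 13 kept their call in all of them other than a fold threshold of 1.5. That threshold left 1780 genes in all, 5 up-regulated and 0 down-regulated cytosolic genes, and 0 mitochondrial genes in either direction. The methods' t-test, named there to rank genes for a gene set analysis and run here gene by gene, called 3242 genes after Benjamini-Hochberg adjustment. Of the cytosolic genes 9 were up-regulated and 0 down-regulated by it, and of the mitochondrial genes 2 were up-regulated and 2 down-regulated. WARS1 (adjusted p = 0.0792 by this test applied across all genes, 0.000172 to 0.0792 over the alternatives), SARS1 (0.0564, from 3.11e-05) and AARS2 (0.0572, from 0.00586) were among the calls lost by it. At an unadjusted threshold of 0.05 it called 6422 genes, 13 cytosolic genes up and 1 down, and 4 mitochondrial genes up and 3 down. The count of up-regulated mitochondrial genes was 2 after quantile normalization and 3 after cyclic loess, and that of cytosolic genes was 11 and 12. The median log2 fold change of all 14 mitochondrial genes was -0.0184 and -0.0092 under these settings, and the cause was not tested. The median difference over the pairs was 0.3421 after quantile normalization.

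With the replicate number as a block, 3 mitochondrial genes were up-regulated, MARS2 and WARS2 being lost, and no other call among the 33 genes changed. Leaving out single arrays gave 11 to 12 cytosolic genes up and 0 to 1 down, 2 to 5 mitochondrial genes up and 3 to 4 down, 5172 to 6835 genes in all, medians of 0.2793 to 0.3524 for cytosolic and 0.0172 to 0.0549 for mitochondrial genes, and a median pair difference of 0.2449 to 0.3455. Of the 12 genes not called, 5 changed sign while close to 0. Leaving out single arrays, KARS1 ran from -0.0517 to 0.027, QARS1 from -0.0393 to 0.0302, VARS1 from -0.0863 to 0.038 and NARS2 from -0.0024 to 0.0589. NARS2 was at -0.0328 after quantile normalization and -0.0225 after cyclic loess, and PARS2 at -0.004 after quantile normalization. EARS2 was down-regulated after quantile normalization alone (adjusted p = 0.0331 from limma, in a range of 0.0331 to 0.486).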
